A study of Mus musculus with 24 samples.

Results

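The 9 genes described here handle vitamin A (retinol) in the gut. They were chosen by symbol: Rbp2, Lrat, Rdh7, Aldh1a1, Aldh1a2, Aldh1a3, Crabp2, Rarb and Isx, 9 of the 21441 genes in each deposited table. The rule itself uses no measured value, but the choice was made with earlier results of these data known. Their levels were read in RNA-seq libraries of poly(A)-selected RNA from wild-type mice of the C57BL6J strain, with 3 gut regions (duodenum, ileum, colon) sampled. The treated group (labelled 3xD) received 3 injections of 1,25D3, the hormonal form of vitamin D, at 1 ng/g body weight, given 48, 24 and 6 h before the end. The other group (labelled minusD) was vitamin D-deficient with no treatment in its labels. The labels list 4 samples per group and tissue, aged 10 to 14 with no unit stated, of both sexes. The library columns carry no link to single samples, so the labels tie neither sex nor age to a library. Both groups share strain and genotype, and there was no vitamin D-replete or vitamin A-manipulated group. The sources used here do not give the vitamin A content of the diet. The analysis used 8 duodenal, 7 ileal (4 treated, 3 deficient) and 8 colonic libraries, 23 in all.

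Dietary vitamin A reaches enterocytes as retinol or as carotenoids that are cleaved to retinal. Inside the cell retinol and retinal are carried by binding proteins, retinol is esterified for export in chylomicrons, and a part is oxidised in consecutive steps, through retinal to retinoic acid. Retinoic acid binds nuclear receptors that pair with RXR, the partner that the vitamin D receptor also uses. In the intestine, retinoic acid feeds back on uptake through the homeobox protein ISX, which represses carotenoid cleavage and the uptake receptor SR-BI, and it imprints gut homing on lymphocytes.

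Both library naming and tissue composition set limits on every comparison below. In each tissue 1 treated and 3 deficient libraries carry serial numbers (3xD 1; vehicle 1, 2 and 3), and 3 treated libraries (3xD5711, 3xD5720, 3xD5734) and 1 deficient library (minusD5718, not in the ileum table) carry 4-digit numbers, so the naming scheme nearly coincides with treatment. Depth followed the scheme. The reads that could be recovered from the FPKM steps numbered 12545801 to 13920850 in the 4-digit and 18196688 to 28761184 in the serial libraries of the duodenum, with no overlap in the ileum or colon either. The vitamin D target Cyp24a1 was 64.9 to 641 FPKM in treated and at most 0.418 FPKM in deficient duodenum, so the labels held there. It was higher in every treated than in every deficient library of the ileum and colon as well. All 10 enterocyte markers were present at a median of at least 1 FPKM in the duodenum and ileum, and the 5 colonocyte markers summed to 3478 to 9946 FPKM in the colon against at most 888 FPKM in the small intestine. Stomach markers summed to 6251 to 12369 FPKM in the 4-digit and 40.5 to 215 FPKM in the serial duodenal libraries. The ileal library 3xD5720 stood apart: its enterocyte markers summed to 12720 FPKM against 22805 to 33771 FPKM in the others, and the ileal bile acid binding protein gene Fabp6 was 1985 FPKM against at least 5462 FPKM. The colonic library 3xD5720 held 17929 FPKM of exocrine pancreas transcripts against 164 to 2664 FPKM in the other colonic libraries. The part of these differences in the results was not tested beyond the values given with and without these libraries. In these bulk tissues, fewer cells of a type and less RNA per cell cannot be told apart.

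RefSeq promoter windows of GRCm38.p6, running from 250 bases before to 50 bases after a gene's start, were matched for 7 of the 9 genes, but not for Crabp2 or Aldh1a3. The windows of 3 genes are shown as examples, and no expression result below rests on them. Capitals mark nuclear receptor half-sites, searched on both strands as the consensus AGGTCA or as one of the related hexamers AGTTCA, or else GGGTCA, or else GGTTCA, and the spacer between repeated ones.
Rarb, chr14:16575427-16575726, minus strand: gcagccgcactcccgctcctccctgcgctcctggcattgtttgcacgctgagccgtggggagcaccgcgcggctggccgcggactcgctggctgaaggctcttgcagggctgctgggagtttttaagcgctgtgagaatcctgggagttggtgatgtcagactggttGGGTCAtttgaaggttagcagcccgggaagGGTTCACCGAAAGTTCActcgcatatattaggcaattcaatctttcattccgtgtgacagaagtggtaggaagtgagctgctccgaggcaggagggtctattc
Rbp2, chr9:98490287-98490586, plus strand: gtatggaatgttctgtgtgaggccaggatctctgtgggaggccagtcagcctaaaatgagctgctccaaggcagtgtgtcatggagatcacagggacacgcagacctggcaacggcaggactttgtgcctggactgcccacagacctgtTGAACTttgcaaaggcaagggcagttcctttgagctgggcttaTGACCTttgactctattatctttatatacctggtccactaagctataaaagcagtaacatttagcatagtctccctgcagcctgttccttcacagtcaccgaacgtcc
Isx, chr8:74872924-74873223, plus strand: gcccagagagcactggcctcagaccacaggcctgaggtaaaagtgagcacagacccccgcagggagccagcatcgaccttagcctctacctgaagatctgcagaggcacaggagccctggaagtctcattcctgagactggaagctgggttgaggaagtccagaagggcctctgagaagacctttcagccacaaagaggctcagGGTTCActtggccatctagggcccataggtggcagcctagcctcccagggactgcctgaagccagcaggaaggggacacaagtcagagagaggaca
The Rarb window was the only one of the members' windows in which 2 of these half-sites stood as a direct repeat with a spacer of 1 to 5 bases. The repeat, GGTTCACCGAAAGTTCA, has a spacer of 5 bases (the DR5 arrangement) and lies 53 to 37 bases before the start. Such a DR5 occurred in 32 of 32851 windows, or 0.0974%. A single half-site is common, occurring in 43.7% of all windows. Half-sites also occurred in windows of Rdh7 and Aldh1a1, which are not shown. The Rbp2 window held 2 half-sites on the minus strand, TGAACT at 101 to 96 and TGACCT at 58 to 53 bases before the start, and the Isx window held 1, GGTTCA, at 46 to 41 bases before the start. These matches describe letters only, since no binding was measured here.

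Rbp2 encodes the cellular retinol-binding protein of enterocytes, which carries retinol and retinal towards esterification. The gene lies on the plus strand at chr9:98390956-98410190 of NCBIM37, with 4 exons. In the duodenum the treated libraries 3xD 1, 3xD5711, 3xD5720 and 3xD5734 held 6799, 5082, 6102 and 8103 FPKM. The deficient libraries minusD5718 and vehicle 1, 2 and 3 held 4469, 4494, 5830 and 5051 FPKM. All 4 treated libraries lay above the deficient median, but the groups overlapped. Mean levels were 6522 ± 1268 FPKM (SD, n = 4) treated and 4961 ± 638 FPKM (SD, n = 4) deficient, a log2 difference of 0.38 ± 0.23 (SE) on the log2(FPKM + 1) scale that did not pass the test (limma, adjusted p = 0.584).

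Rbp2 fell steeply along the gut. Over all libraries its median was 5456 FPKM in the duodenum, 965 FPKM in the ileum and 74.4 FPKM in the colon. The duodenal median was 5.65 times the ileal one and the ileal median 13.0 times the colonic one. No library of one region reached the range of the next: the lowest duodenal value was 4469 FPKM, the ileal values ran from 687 to 1332 FPKM and the highest colonic value was 123 FPKM. The ranges also stayed apart as TPM (each library's FPKM rescaled to the same sum), at 6938 to 10787, 834 to 1842 and 47.2 to 207 TPM. Within the ileum the treated libraries, in the order above, held 1332, 713, 687 and 1056 FPKM and the deficient vehicle 1, 2 and 3 held 817, 977 and 965 FPKM, so the treated values lay on both sides of the deficient ones. In the colon the treated libraries held 83.5, 69.2, 79.6 and 84.8 FPKM and the deficient libraries 61.7, 123, 62.5 and 29.5 FPKM, the deficient group holding both the lowest and the highest value.

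**Figure D1:**
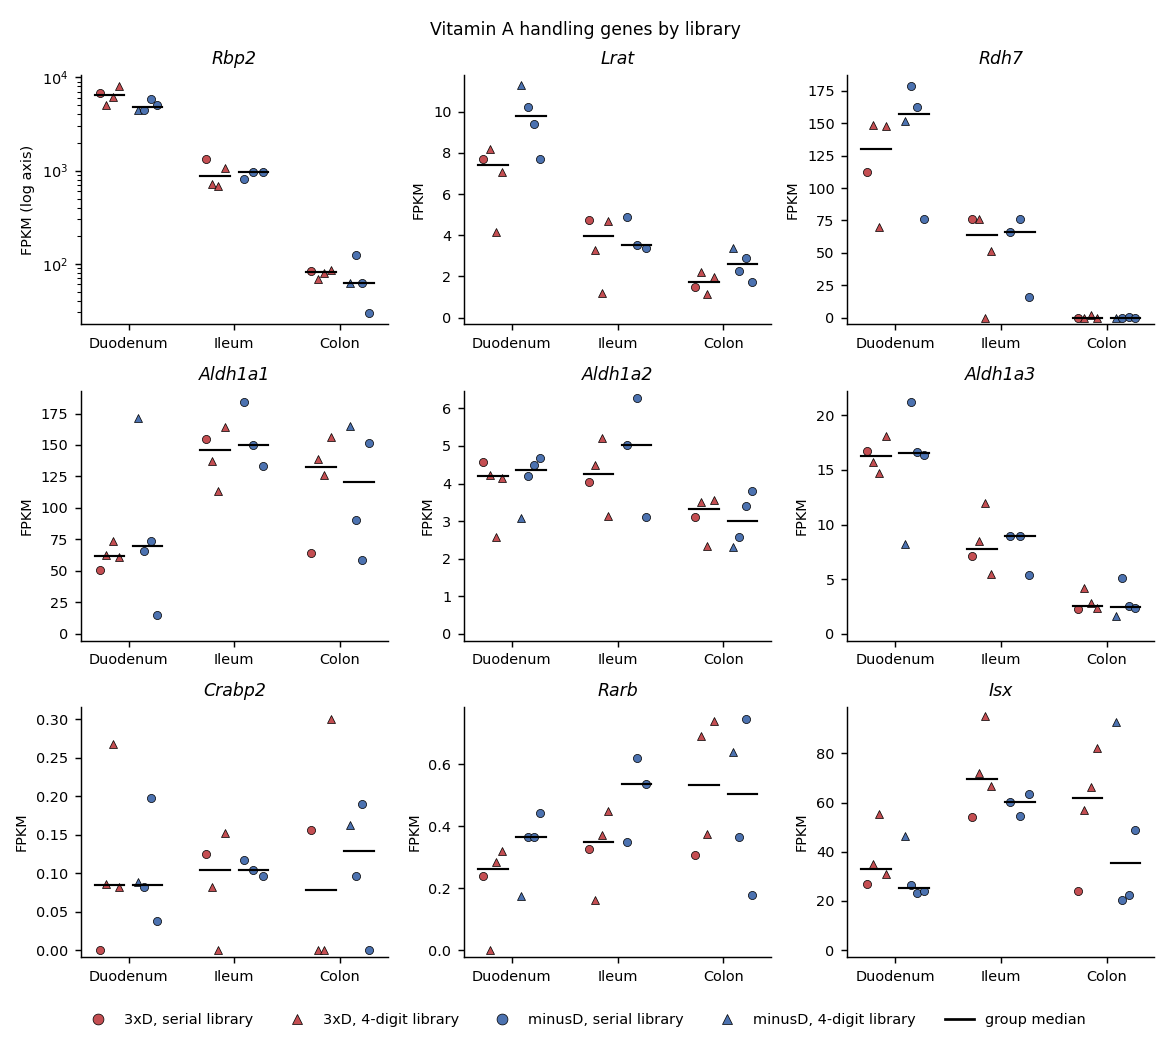
FPKM of each of the 9 genes in every library by region and group. Red points are treated and blue points deficient libraries, circles carry serial and triangles 4-digit numbers, bars are group medians, and Rbp2 is on a log axis. Rbp2 separates the 3 regions completely, from at least 4469 FPKM in the duodenum to at most 123 FPKM in the colon, while treated and deficient libraries overlap for each gene past the filter.

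Lrat encodes lecithin:retinol acyltransferase, the enzyme that esterifies the retinol delivered by RBP2. It lies on the minus strand at chr3:82696501-82707895 of NCBIM37, with 2 exons. In the duodenum the treated libraries held 7.72, 8.19, 4.15 and 7.05 FPKM and the deficient libraries 11.3, 10.2, 9.39 and 7.72 FPKM. All 4 treated libraries were below the deficient median of 9.80 FPKM, with treated 3xD 1 and 3xD5711 above the lowest deficient library, 3xD 1 only just. The log2 difference was -0.48 ± 0.20 (SE), with a 95% interval of -0.92 to -0.04 from the moderated fit, and limma's adjusted p over the 11734 genes tested was 0.526. Without 3xD5720 the difference was -0.29 (limma, adjusted p = 0.767). Within the serial libraries it was -0.20, from 1 treated library, and within the 4-digit libraries -0.76, from 1 deficient library. In the colon, 1.48, 2.23, 1.13 and 1.95 FPKM in the treated libraries stood against 3.37, 2.28, 2.91 and 1.73 FPKM in the deficient ones. There again all 4 treated libraries were below the deficient median, at a log2 difference of -0.40 ± 0.20 (SE), and the test was not passed (limma, adjusted p = 0.863). In the ileum 2 of the 4 treated libraries were below the deficient median, and the log2 difference was -0.22 ± 0.34 (SE; limma, adjusted p = 0.826). The low ileal value belongs to 3xD5720, at 1.18 FPKM against 3.29 to 4.75 FPKM in the other treated libraries and 3.35 to 4.86 FPKM in the deficient ones. Without that library the ileal difference was 0.091, with the opposite sign.

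Lrat also declined along the gut, with medians of 7.96, 3.54 and 2.09 FPKM in the duodenum, ileum and colon. Only duodenum and colon had ranges apart, at 4.15 to 11.3 against 1.13 to 3.37 FPKM, and on the TPM scale these ranges overlapped (4.77 to 17.9 against 1.60 to 5.37 TPM). The low duodenal end is again library 3xD5720.

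Rdh7 encodes a microsomal short-chain dehydrogenase that oxidises retinol to retinal. It lies on the minus strand at chr10:127321084-127326095 of NCBIM37, with 5 exons, and has close paralogs. Of the 1685 stretches of 50 bases in its annotated transcripts, 10.3% recur in those of Rdh1, Rdh9 or Rdh19, so some of its reads could have been assigned to these genes. In the duodenum the treated libraries held 113, 149, 70.2 and 148 FPKM and the deficient libraries 152, 179, 163 and 76.2 FPKM. Treated 3xD5720 and deficient vehicle 3 were low, and the other 6 lay between 113 and 179 FPKM. In the ileum the treated libraries held 76.3, 75.8, 0 and 51.5 FPKM and the deficient libraries 65.8, 75.8 and 15.5 FPKM. The same library numbers, 3xD5720 (listed at 0) and vehicle 3, were the lowest of their groups again. The brush-border lactase gene Lct, among the genes most like Rdh7 over these same libraries (r = 0.972), had its lowest values there too. It held 118 and 103 FPKM in the duodenum (others 242 to 465 FPKM) and 5.06 and 19.5 FPKM in the ileum (others 83.4 to 159 FPKM). The 10 enterocyte markers, Lct among them, did not all follow. Their sum in 3xD5720 and vehicle 3 was 39217 and 28951 FPKM in the duodenum, where the others held 31671 to 41990 FPKM. In the ileum it was 12720 and 25028 FPKM, where the others held 22805 to 33771 FPKM.

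The difference between the groups in Rdh7 was -0.23 ± 0.32 (log2, SE) in the duodenum, with limma's adjusted p = 0.791, and -0.89 ± 1.49 in the ileum, with limma's adjusted p = 0.845. Without 3xD5720 the ileal value was 0.63, so 1 library set its sign. In the colon Rdh7 was listed at 0 in 6 of 8 libraries. The other 2 were treated 3xD5720, at 2.31 FPKM from 49 recovered reads, and deficient vehicle 2, at 0.446 FPKM from 19 recovered reads. A count of 0 allows up to 3 reads in a library. Its paralog Rdh9 held 61.0 FPKM in ileal 3xD5720, within the 46.8 to 66.4 FPKM of the other ileal libraries, and its paralog Rdh1 held 3.05 FPKM there against 3.37 to 5.38 FPKM in the others.

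The Aldh1a genes encode retinal dehydrogenases, which make retinoic acid from retinal. Aldh1a1 (chr19:20676451-20717952, plus strand, 13 exons) and Aldh1a3 (chr7:73535778-73572403, minus strand, 15 exons) are known from epithelia, and Aldh1a2 (chr9:71063596-71144050, plus strand, 14 exons) from dendritic and stromal cells; coordinates are of NCBIM37. Aldh1a1 shares 7.53% of its 50-base stretches with Aldh1a7, and Aldh1a2 and Aldh1a3 share none with any other gene.

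Duodenal Aldh1a1 was 50.6, 62.5, 73.7 and 61.0 FPKM in the treated libraries and 171, 65.5, 74.1 and 15.3 FPKM in the deficient ones. The deficient group spanned from vehicle 3 as the lowest to minusD5718 as the highest of all 8, with the treated group between them, and the log2 difference was 0.03 ± 0.59 (SE; limma, adjusted p = 0.989). The 95% interval of the log2 difference, -1.30 to 1.36, spans folds of 0.406 to 2.56. Ileal Aldh1a1 was 155, 137, 114 and 164 FPKM treated and 185, 150 and 134 FPKM deficient. Colonic Aldh1a1 was 64.6, 139, 126 and 156 FPKM treated and 165, 90.1, 58.6 and 152 FPKM deficient, so the groups overlapped in both tissues. The medians of 64.0, 150 and 133 FPKM in the duodenum, ileum and colon put the duodenum lowest, but its range overlapped the ileal range through minusD5718 and the colonic range through several libraries.

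Aldh1a3 ran the other way, with medians of 16.5, 8.49 and 2.46 FPKM. Its duodenal libraries held 16.8, 15.7, 14.7 and 18.1 FPKM treated and 8.26, 21.2, 16.6 and 16.4 FPKM deficient, minusD5718 being the lowest. The ileal range of 5.36 to 11.9 FPKM lay above the colonic range of 1.64 to 5.15 FPKM, though as TPM these ranges overlapped (5.78 to 14.5 against 2.61 to 8.65 TPM). Aldh1a2 was flat, with medians of 4.22, 4.48 and 3.26 FPKM and a lowest and highest library of 2.32 and 6.27 FPKM over all 23. The 11 dendritic cell and macrophage markers measured summed to medians of 35.4 FPKM in treated and 48.1 FPKM in deficient duodenum, with ranges of 30.7 to 53.9 and 39.4 to 61.4 FPKM. Aldh1a2 means there were 3.88 ± 0.894 and 4.12 ± 0.717 FPKM (SD, n = 4 each). In treated and deficient libraries the marker medians were 35.0 and 42.2 FPKM in the ileum and 22.4 and 28.1 FPKM in the colon. By library naming they were 52.6 (serial) and 35.4 FPKM (4-digit) in the duodenum. In the colon the serial range of 26.2 to 31.5 FPKM lay above the 4-digit range of 13.1 to 23.9 FPKM. The 6 fibroblast markers summed to medians of 74.5 FPKM in treated and 60.4 FPKM in deficient duodenum. In the same order they reached 142 and 138 FPKM in the ileum and 316 and 284 FPKM in the colon. The part of either cell type in the Aldh1a2 level was not tested. Neither Aldh1a2 nor Aldh1a3 passed the test in any tissue: their log2 differences lay between -0.13 and 0.12, and limma's adjusted p-values between 0.852 and 0.985.

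The share of each gene in the sum of the 3 Aldh1a genes of a library does not depend on that library's scaling constant. Aldh1a1 made up 73.3 ± 14.6% of the sum in the duodenum (SD, n = 8), 92.1 ± 2.69% in the ileum (n = 7) and 94.5 ± 2.49% in the colon (n = 8). Aldh1a3 made up 21.3 ± 11.3%, 5.13 ± 1.95% and 2.67 ± 1.46% of it. The duodenal shares were spread widely. Aldh1a1 took 42.1% in deficient vehicle 3 and 93.8% in deficient minusD5718, and 70.3% to 81.0% in the 4 treated libraries. Every duodenal library other than minusD5718 had a smaller Aldh1a1 share than each ileal (86.9% to 95.0%) and each colonic (90.8% to 97.7%) library.

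**Figure D2:**
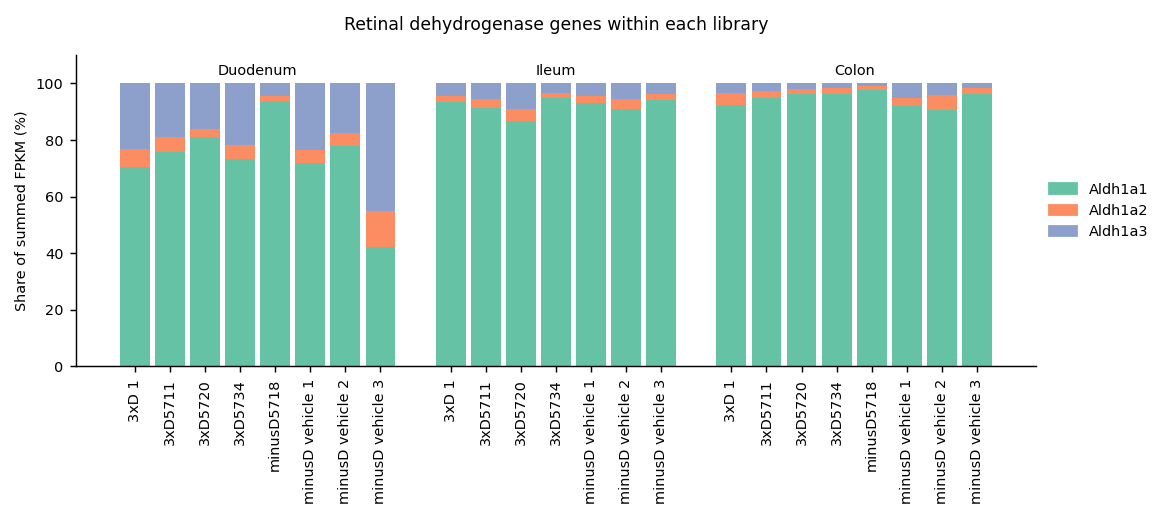
Share of Aldh1a1, Aldh1a2 and Aldh1a3 in their summed FPKM, in percent, with 1 stacked bar per library grouped by region. Aldh1a3 averages 21.3% in the duodenum and 2.67% in the colon, and the duodenal libraries minusD5718 and vehicle 3 hold the extremes of the Aldh1a1 share, 93.8% and 42.1%.

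Crabp2 encodes a cellular retinoic acid-binding protein that delivers the ligand to its receptor, and Rarb the beta receptor, itself a classic retinoic acid target through the DR5 shown above. Crabp2 (chr3:87752588-87757298 of NCBIM37, plus strand, 4 exons) was at most 0.300 FPKM in any library and rested on 0 to 4 recovered reads per library, which is too few to show a difference between regions or groups. Rarb (chr14:17263356-17651381, minus strand, 10 exons) was at most 0.747 FPKM. Both were under the filter of at least 1 FPKM in at least 3 libraries everywhere, and were fitted without a filter. Rarb had medians of 0.304, 0.373 and 0.509 FPKM in the duodenum, ileum and colon, with overlapping ranges. In the duodenum the treated libraries held 0.241, 0, 0.286 and 0.322 FPKM and the deficient ones 0.174, 0.365, 0.366 and 0.445 FPKM, where the serially numbered deficient libraries were highest. The unfiltered log2 differences of Rarb were -0.15 ± 0.10, -0.18 ± 0.09 and 0.05 ± 0.15 (SE) in the duodenum, ileum and colon, and limma's adjusted p-values were 0.686, 0.773 and 0.965.

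Isx encodes the intestine-specific homeobox factor of the feedback described above. It lies on the plus strand at chr8:77396618-77417405 of NCBIM37, with 4 exons. The treated libraries 3xD 1, 3xD5711, 3xD5720 and 3xD5734 held 27.0, 34.9, 55.4 and 30.9 FPKM in the duodenum, and the deficient libraries minusD5718 and vehicle 1, 2 and 3 held 46.5, 26.6, 23.1 and 24.0 FPKM. The ileal values were 54.1, 72.1, 95.1 and 66.8 FPKM treated and 60.1, 54.7 and 63.4 FPKM deficient. In the colon they were 24.0, 57.2, 66.4 and 82.0 FPKM treated and 92.6, 20.6, 22.5 and 48.7 FPKM deficient. The log2 differences were 0.30 ± 0.27, 0.25 ± 0.19 and 0.45 ± 0.52 (SE) in the duodenum, ileum and colon, and limma's adjusted p-values were 0.687, 0.716 and 0.929. The medians, 28.9, 63.4 and 52.9 FPKM, put the duodenum lowest, but ranges overlapped between all pairs of regions. The order of duodenum and colon differed by library naming. Their medians were 25.3 and 23.3 FPKM in the serial libraries and 40.7 and 74.2 FPKM in the 4-digit libraries.

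The Isx values in FPKM divided by library naming rather than by treatment. On that scale every 4-digit library of a tissue was higher than every serial one, whichever group it belonged to: at least 30.9 against at most 27.0 FPKM in the duodenum, 66.8 against 63.4 FPKM in the ileum and 57.2 against 48.7 FPKM in the colon. As TPM the schemes overlapped in the duodenum, where 4-digit 3xD5734 held 41.1 TPM and serial vehicle 1 held 46.7 TPM, and they were apart in the ileum (at least 96.6 against at most 91.5 TPM) and the colon (94.4 against 77.9 TPM). In FPKM, treated 3xD 1 fell with the serially numbered deficient libraries, and deficient minusD5718 with the 4-digit treated ones. In FPKM the schemes were apart for 1 of 7, 1 of 7 and 1 of 6 members past the filter in the duodenum, ileum and colon, each time Isx, where 7.44%, 14.8% and 13.3% of all genes tested had them apart. As TPM the counts were the same, with Aldh1a2 in place of Isx in the duodenum, against 6.15%, 10.5% and 9.63% of genes. Such counts are near the share over all genes. Within a scheme, the treated-minus-deficient difference of Isx was 0.13 (serial) and -0.24 (4-digit) in the duodenum, -0.13 (serial) in the ileum, and -0.23 (serial) and -0.44 (4-digit) in the colon, on the log2(FPKM + 1) scale. These rest on 1 library in at least 1 arm and carry no test. What the naming scheme stands for is not stated in the labels.

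**Figure D3:**
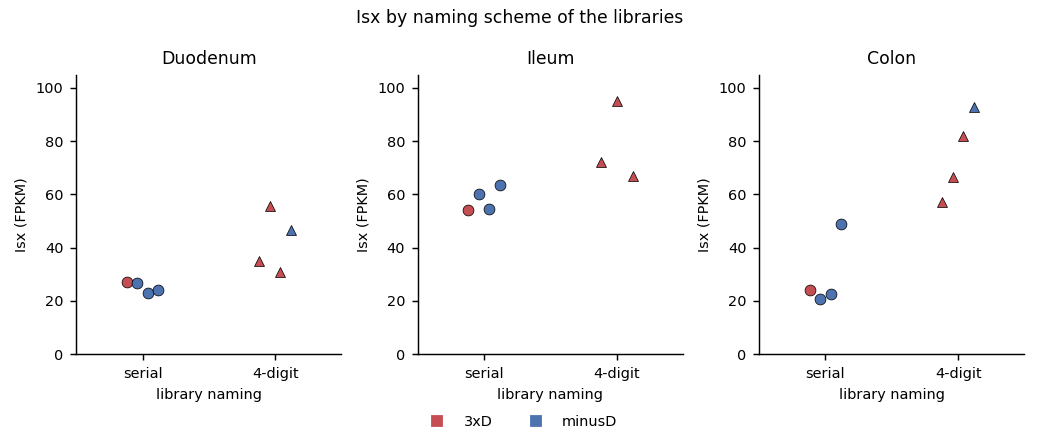
Isx in FPKM for each library, split by library naming, with 1 panel per tissue, treated libraries in red and deficient libraries in blue. In FPKM the 4-digit libraries lie above the serial libraries in all 3 tissues, including the single deficient 4-digit library at 46.5 FPKM in the duodenum and 92.6 FPKM in the colon; as TPM the duodenal schemes overlap.

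No member was called for treatment in any tissue, of 7 tested in the duodenum, 7 in the ileum and 6 in the colon, with limma at an adjusted p under 0.05. The background was as sparse: 0.0256% of the 11734 genes tested were called in the duodenum (3 genes), 0.0% of 12149 in the ileum and 0.0% of 12746 in the colon. The smallest adjusted p of any gene in limma was 0.706 in the ileum and 0.109 in the colon. The vitamin D target Cyp24a1 was therefore not called in these tissues, although its treated libraries all lay above the deficient ones. A missing call there does not show that a gene did not respond. At an unadjusted p under 0.05 in limma, 1103 genes passed in the duodenum, 709 in the ileum and 746 in the colon. Among the members past the filter only Lrat did so, in the duodenum (limma's unadjusted p across the 11734 genes = 0.037, adjusted p = 0.526). No member had treated and deficient libraries that did not overlap, where 4.37%, 6.56% and 4.54% of all genes tested did in the duodenum, ileum and colon. The intervals differ in what they allow. For Aldh1a2 the 95% interval of the fold ran from 0.724 to 1.24 in the duodenum and from 0.790 to 1.34 in the colon, and for Rbp2 from 0.911 to 1.87 in the duodenum. For Rdh7 in the ileum it ran from 0.050 to 5.81. These folds are on the FPKM + 1 scale, which understates changes of genes at a few FPKM.

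**Figure D4:**
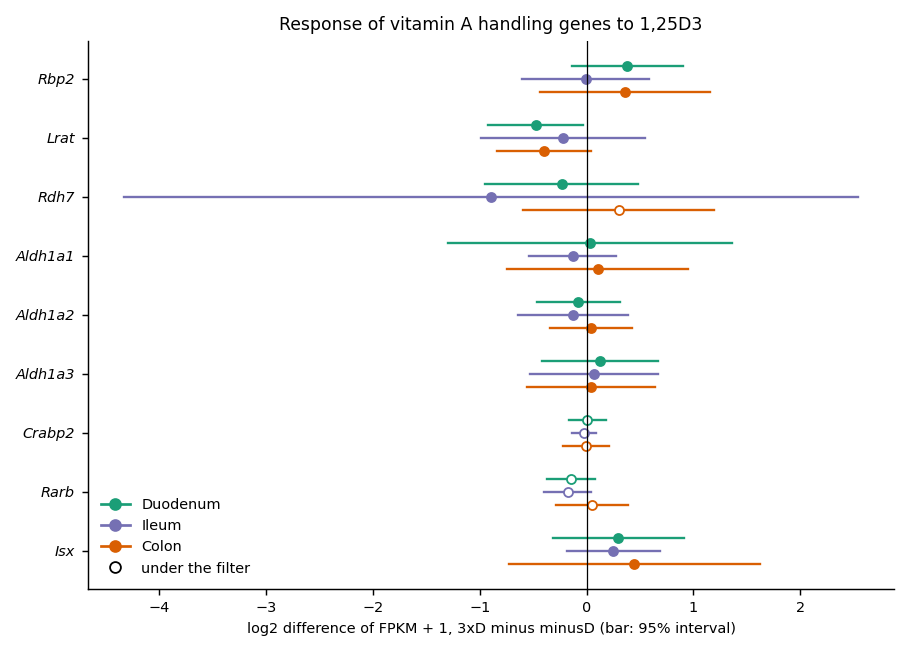
Log2 difference of FPKM + 1, treated minus deficient, for each gene and tissue, with 95% intervals from limma. Filled points passed the filter and open points were fitted without it. All intervals include 0 except that of Lrat in the duodenum (-0.92 to -0.04, adjusted p = 0.526), and the ileal Rdh7 interval is the widest.

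The response was also compared between tissues in 1 fit of all 23 libraries. None of the 7 members past the filter differed in response for any of the 3 pairs of tissues, and 0.0% of the 13235 genes did. The smallest adjusted p among the members was 0.885, for Rbp2 between duodenum and ileum, at a log2 difference of responses of 0.39 ± 0.43 (SE). For Lrat the responses of duodenum and colon differed by -0.08 ± 0.36 (SE), with a 95% interval of -0.83 to 0.68.

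Set beside all genes, regional separation among the members was mixed. The library ranges of duodenum and ileum did not overlap for 1 of the 7 members past the filter (Rbp2), against 15.5% of all genes compared. Ileum and colon were apart for 2 of 7 (Rbp2 and Aldh1a3), against 22.2% of genes, and duodenum and colon for 4 of 7 (Rbp2, Lrat, Rdh7 and Aldh1a3), against 37.2%. Each of these was higher in the more proximal region. The shares over all genes count either direction, so this direction has no background to be read against. As TPM the counts were 1, 1 and 3 of 7, against 10.4%, 25.2% and 34.7% of genes. The regions come from tables that were normalised separately, so no test was made across them.

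The 65 other genes of the pathway that were listed fall into uptake and cleavage, ester formation and hydrolysis, oxidoreductases, clearance, carriers, receptors and targets, and 63 of them are in the tables. None of the 47, 47 and 45 tested in the duodenum, ileum and colon passed (limma), against the backgrounds above. Their median log2 difference was 0.01, -0.03 and 0.10, where that of all genes tested was 0.01, 0.01 and -0.01. In the duodenum the smallest p-values belonged to Rdh5, a retinol dehydrogenase, and Rara, the alpha receptor. Rdh5 ranged from 0 to 1.63 FPKM over the treated libraries and from 1.71 to 3.11 FPKM over the deficient ones (-1.45 ± 0.32 (SE), limma, adjusted p = 0.479). Rara held 5.62 ± 0.894 FPKM treated and 8.36 ± 1.77 FPKM deficient (SD, n = 4 each; limma, adjusted p = 0.499).

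In the ileum the smallest p-values were those of Cd36, a fatty acid and carotenoid transporter, and Scarb1, the SR-BI gene that ISX represses. Cd36 held 25.8 ± 3.11 FPKM treated (n = 4) and 16.1 ± 6.15 FPKM deficient (n = 3), and Scarb1 2.83 ± 0.590 and 4.10 ± 0.449 FPKM (SD), both at limma's adjusted p = 0.706. The 6 adipocyte markers, among them the fatty acid binding protein gene Fabp4, summed to 348 to 539 FPKM in treated and 295 to 400 FPKM in deficient ileum. In the colon they were those of Adh1 and Adh5, alcohol dehydrogenases of which Adh1 oxidises retinol. Adh1 held 1064 ± 292 FPKM treated and 582 ± 223 FPKM deficient (SD, n = 4 each), a log2 difference of 0.93 ± 0.33 (SE; limma, adjusted p = 0.846), and its groups met at 809 and 821 FPKM. The adipocyte markers summed to 277 to 392 FPKM in treated and 139 to 271 FPKM in deficient colon, with no overlap, and their part in the Adh1 and Cd36 values was not tested. Adh1 was also the highest oxidoreductase of the list in the duodenum, at 960 ± 137 FPKM treated and 732 ± 143 FPKM deficient (SD, n = 4 each). Its level in the ileum was lower, at 93.7 to 429 FPKM treated and 35.5 to 83.3 FPKM deficient. The other genes with the highest mean of their role included Bco2 (carotenoid cleavage; 78.5 and 74.2 FPKM in treated and deficient duodenum), Dgat1 (an acyltransferase that can esterify retinol; 431 and 464 FPKM), Cyp2s1 (retinoic acid oxidation; 25.2 and 29.2 FPKM) and Cdx1 (a retinoic acid-responsive homeobox gene; 76.2 and 63.5 FPKM). None of these passed the test.

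The genes most like each member were ranked by Pearson's r of log2(FPKM + 1) over the 23 libraries, which share tissue, depth and naming scheme, so the values describe mainly the regional pattern. The most like Rbp2 was Gip, an incretin gene of the upper gut (r = 0.989), the most like Lrat was Cyb5b (0.955), and the most like Rdh7 were Ugt2a3 (0.981) and Lct (0.972). The most like Aldh1a3 were Adh6a (0.952) and the sugar transporters Slc2a2 (0.951) and Slc5a1 (0.946). Likeness was lower for Aldh1a1, led by its paralog Aldh1a7 (0.800), for Isx, led by Osbpl11 (0.833), and for Aldh1a2, led by Cyp3a44 (0.724). After tissue-by-treatment means were removed, Ugt2a3 still followed Rdh7 (0.925), behind 1600014C10Rik (0.953). Aldh1a7 followed Aldh1a1 (0.857), behind Mfsd7b (0.864), and the fibroblast receptor gene Pdgfra followed Aldh1a3 (0.776). Between members, Lrat and Rdh7 had r = 0.68 and Aldh1a1 and Isx r = 0.61 in these deviations, and Aldh1a2 and Aldh1a3 r = 0.52. The deviations still hold the naming scheme. Those of Rdh7 and Lrat include ileal 3xD5720, at 0 and 1.18 FPKM, against at least 51.5 and 3.29 FPKM in the other treated ones. The r values without that library were not computed.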

How the data were processed

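The authors deposited FPKM by gene symbol with 1 column for each library, and their 7- and 8-library tables of a tissue differ by 1 constant per library. Per the labels' protocols, CLC Genomics Workbench mapped the reads. The submitters' processing notes name the mm9 build, DESeq2, DESeq 1.14.0 and kallisto 0.45.0 without their roles. The labels list 24 samples. The 8-library ileum table equals the duodenum table in 171528 of 171528 values, so its 8 columns were not used, and the 7-library ileum table (4 against 3) was used instead of the planned 4 against 4. Columns named Vehicle were taken as the deficient group, since the tables compare only minusD with 3xD. The labels do not say whether vehicle was injected. The labels do not state that all samples of a group came from separate animals. Labelled ages differ within each group (10 to 14 treated, 10 to 13 deficient), so its samples are not all repeats of the same animal. The p-values measure the spread between these samples, a part of which may be technical.

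Genes that reached 1 FPKM in 3 or more libraries of a tissue were tested by limma 3.58.1 in R 4.3.3 (two-sided, trended eBayes after lmFit) on values transformed as log2(FPKM + 1), with Benjamini-Hochberg adjustment over all genes tested and a threshold of 0.05. Members under the filter were fitted without one. Differences between tissues were contrasts in 1 fit of 6 groups. The script was tested on simulated data. Whole reads, within 0.0001 of a whole number, were recovered for 13658, 13652 and 13632 genes in the duodenum, ileum and colon. Those counts are 81.5%, 80.9% and 79.3% of the number of genes above 0 in at least 3 libraries. The recovered reads gave depths of 11609266 to 29818890 reads, which leave out the other genes. Library numbers shared by tissues were checked for pairing by correlating deviations from group means. Positions are from gencode vM1 on NCBIM37 (mm9) and promoters from RefSeq on GRCm38.p6.

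The members and lists were chosen with earlier results of these data known. Named beside the members were other retinoid genes past the threshold, the 2 with the smallest p per tissue and the highest-expressed per role, and the genes most like each member (3 by levels, 2 by deviations). Of the genes most like a member, the text gives the leading ones by levels and only some by deviations. Levels of Xist and Ddx3y were not used to assign sex to the libraries. Alternatives covered the pseudocount, filter, scaling, naming scheme, tables, model and each library left out.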

Additional observations from a re-analysis of the deposited data

Results flagged for a closer look

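Of 45 groups of 4 libraries examined, 3 held a library set apart from the other 3 by more than Dixon's 95% limit, and chance gives about 1 such group in 20. That rate does not apply to the 2 Rdh7 groups, where the other 3 libraries are listed at 0 and any value above 0 stands apart. Rdh7 in treated colon stood out through library 3xD5720, at 2.31 FPKM with the others listed at 0. That library also held 17929 FPKM of exocrine pancreas markers, against 164 to 343 FPKM in the other treated colonic libraries, and its part in the Rdh7 value was not tested. Rdh7 in deficient colon stood out through vehicle 2, at 0.446 FPKM with the others listed at 0, and that library held 259 FPKM of the pancreas markers, between 220 and 2664 FPKM in the other deficient ones. Isx in deficient duodenum stood out through minusD5718, at 46.5 FPKM against 23.1 to 26.6 FPKM, the only deficient library there with a 4-digit number.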

How the results depend on the processing

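Within tissues, no member passed the limma threshold, at 0 calls, under the alternatives fitted there: pseudocounts of 0.1 and 0.5, other filters, quantile normalization, median-ratio rescaling, TPM, the naming scheme as a covariate, the authors' 7-library tables, 1 fit of all tissues, voom on recovered reads, and leaving out each library in turn. Between tissues the same held, at 0 calls, with the other pseudocounts, TPM, no filter, the replicate block, each library left out in turn and, chosen after seeing the data, without 3xD5720 in every tissue. The log2 differences of Lrat and Rbp2 kept their sign in all 21 alternatives in the duodenum and in all 21 in the colon, and that of duodenal Rdh7 in all 21, but some were close to 0: duodenal Rdh7 was -1.1e-05 without 3xD5720, duodenal Rbp2 0.016 with quantile normalization and colonic Rbp2 0.018 without deficient vehicle 3. Many of the other small differences changed sign (70 values over genes, tissues and alternatives, against 343 that kept it). The causes were not tested.

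With TPM the log2 differences turned to -0.15 for Aldh1a1 and -0.046 for Aldh1a3 in the duodenum, 0.0021 for Rbp2 in the ileum, and -0.032, -0.064 and -0.058 for Aldh1a1, Aldh1a2 and Aldh1a3 in the colon. Quantile normalization gave -0.074 for duodenal Aldh1a1. Voom gave -0.019 for duodenal Aldh1a1, -0.016 for colonic Aldh1a2 and -0.051 for colonic Aldh1a3. The 7-library tables gave -0.14 for Aldh1a3 in the duodenum, and -0.044 for Aldh1a2 and -0.12 for Aldh1a3 in the colon. With the naming scheme as a covariate the turned values were -0.56 for Aldh1a1, 0.097 for Aldh1a2 and -0.055 for Isx in the duodenum, 0.54 for Rbp2, 0.24 for Lrat, 0.81 for Rdh7, 0.0021 for Aldh1a1, -0.080 for Aldh1a3 and -0.13 for Isx in the ileum, and -0.38 for Aldh1a1 and -0.34 for Isx in the colon. The ileum has no deficient 4-digit library, so its covariate values rest on 1 treated library, 3xD 1, against the 3 deficient ones. Within serial libraries the ileal values were therefore the same, with 0.024 for Crabp2, and their sign changes are counted under both settings. The duodenal ones were 0.030 for Aldh1a2, -0.094 for Aldh1a3 and -0.14 for Crabp2, and the colonic ones -0.18 for Rdh7, -0.52 for Aldh1a1, -0.044 for Aldh1a2, -0.34 for Aldh1a3, 0.081 for Crabp2, -0.11 for Rarb and -0.23 for Isx. Within 4-digit libraries they were -1.37 for Aldh1a1, 0.16 for Aldh1a2, 0.023 for Rarb and -0.24 for Isx in the duodenum, and -0.24 for Aldh1a1, -0.041 for Rarb and -0.44 for Isx in the colon.

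Leaving out 1 library in turn gave duodenal ranges of -0.61 to 0.53 for Aldh1a1, -0.18 to 0.065 for Aldh1a2 and -0.14 to 0.29 for Aldh1a3. The ileal ranges were -0.19 to 0.13 for Rbp2, -0.37 to 0.091 for Lrat, -1.60 to 0.63 for Rdh7, -0.36 to 0.055 for Aldh1a2 and -0.15 to 0.22 for Aldh1a3, and the colonic ones -0.18 to 0.38 for Aldh1a1, -0.046 to 0.14 for Aldh1a2 and -0.12 to 0.28 for Aldh1a3. The number of members whose regional ranges were apart was 5 within serial and 2 within 4-digit libraries for duodenum against ileum, where 33.0% and 34.7% of all genes were apart with fewer libraries a side. It was 1 to 3 with 1 library left out: 3 without duodenal 3xD5720 (17.4% of genes) and 3 without duodenal minusD5718 (16.4%). For ileum against colon it was 1 with TPM (25.2% of genes) and 5 within serial libraries (40.6%). Over all genes, the 3 calls in the duodenum fell to 1 with a pseudocount of 0.1, a mean filter, quantile normalization, the naming covariate or voom, or without treated 3xD5711, 3xD5720 or 3xD5734 or deficient vehicle 2. The colon went from 0 to between 1 and 5 calls under 4 alternatives, and the ileum from 0 to 1 under 2.

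The groups compared within a tissue could not be paired, because the columns carry no replicate numbers of the labels. Library numbers recur across tissues, so the differences between tissues were also fitted with the replicate block of that number, which again called 0 members. Same-numbered libraries had deviations with r over 0.1 in 7 of 7 pairs of duodenum and ileum (lowest r 0.12). The count was 7 of 8 for duodenum and colon and 6 of 7 for ileum and colon. Among libraries of the same group, the same number was the best match in 6 of 7, 5 of 8 and 6 of 7 pairs. These deviations still hold the naming scheme, and its part was not tested. Depth limits Crabp2 throughout and Rdh7 in the colon.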
